A study of Mus musculus with 4 samples.

Results

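Glycolysis splits glucose into pyruvate in the cytosol, and lactate dehydrogenase then turns pyruvate into lactate. T cells lean on this route when they are activated, and the transcription factor subunit HIF-1alpha, encoded by Hif1a, switches on many of its genes when oxygen is low or when antigen receptor and growth signals are strong. Hif1a and 9 genes of glycolytic enzymes are described here in mouse intrahepatic double negative T cells, that is, CD3-bearing cells that lack CD4 and CD8. The genes were chosen by name: Hif1a, Hk1, Hk2, Gpi1, Pfkl, Pfkp, Aldoa, Pgk1, Eno1 and Ldha. All 10 have a row among the 17454 gene rows of the table, and 9 of them were among the 10423 genes tested.

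RNA came from sorted liver cells that excluded 7-AAD, bore CD45 as well as CD3, and showed no NK1.1, CD4 or CD8. The donors were adult C57BL/6 mice on a methionine-choline deficient diet, a common way to bring on steatohepatitis in mice, or on a normal diet. Each diet was represented by 2 libraries. Nothing in the labels says whether the libraries of 1 diet came from separate animals or pools, so each p-value reflects spread between libraries alone, and that spread may be technical. Levels are given as FPKM, the unit inferred for the table, which scales by transcript length and by sequenced fragments and so permits comparison between genes. Read depth is unknown, and n is 2 libraries per diet throughout.

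Transcripts of other cells were present beside those of T cells. The 8 T cell identity markers summed to 1719 and 1975 FPKM on the deficient diet and to 2156 and 1773 FPKM on the normal diet. Taken singly, 6 of them were lower in both deficient diet libraries than in both normal diet libraries, and 2 were higher. Among all tested genes those shares were 25.5% and 30.7%, and none of the 8 was called in the test below. The 10 macrophage markers summed to 1328 and 714 FPKM on the deficient diet and to 147 and 2098 FPKM on the normal diet, and markers of hepatocytes, neutrophils, B cells and liver endothelium were likewise lowest in normal diet replicate 1 (the last of these at 37.1 FPKM) and highest in normal diet replicate 2. Most of the macrophage sum was Lyz2, at 1197 and 663 FPKM on the deficient diet and 140 and 1934 FPKM on the normal diet. The mean log2(FPKM + 1) of the 10 markers kept the order of libraries, at 4.04 and 3.10 against 1.29 and 4.31. Of the 10, only Marco separated the diets, at 4.52 and 2.10 FPKM on the deficient diet against 0.359 and 0.238 FPKM on the normal diet. Of the macrophage markers 1, Clec4f, was listed at 0 in normal diet replicate 1, and so were Ttr and Fgb among the 9 hepatocyte markers. Red blood cell markers ran otherwise, with 85.8 and 60.3 FPKM on the deficient diet and 243 and 45.5 FPKM on the normal diet. Genes of cell division separated the diets. Their sum was 76.9 and 89.5 FPKM on the deficient diet against 305 and 352 FPKM on the normal diet, and 10 of 15 tested fell (Mki67, Top2a, Aurkb, Ube2c, Birc5, Ccna2, Plk1, Cdc20, Mcm2 and Rrm2), calls that were lost without deficient diet replicate 1, deficient diet replicate 2 or normal diet replicate 1, when no gene of the table was called. Among all tested genes 2.74% were called in either direction. The part of these marker and cell division differences in the results below was not tested. In bulk RNA, fewer cells of a type and less RNA per cell cannot be told apart.

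HIF-1 is known to bind DNA around the core letters ACGTG. The 250 bases before the annotated start of 4 genes are shown because the results turn on them: by log2 change among the 9 tested genes Hk2 had the largest difference upward and Pgk1 the largest downward, Ldha was the most abundant, and Pfkp was higher on the deficient diet without these letters. The sequences are from RefSeq on GRCm38.p6, run 5′ to 3′ along the gene's own strand, and carry ACGTG on either strand in capitals, so that a CACGTG run holds the motif on both strands.
Hk2, chr6:82774455-82774704, minus strand: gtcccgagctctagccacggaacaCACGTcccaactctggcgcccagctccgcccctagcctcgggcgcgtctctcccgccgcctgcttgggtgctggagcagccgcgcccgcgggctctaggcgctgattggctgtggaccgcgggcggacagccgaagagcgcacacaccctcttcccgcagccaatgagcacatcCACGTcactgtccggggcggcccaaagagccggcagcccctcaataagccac
Pgk1, chrX:106186850-106187099, plus strand: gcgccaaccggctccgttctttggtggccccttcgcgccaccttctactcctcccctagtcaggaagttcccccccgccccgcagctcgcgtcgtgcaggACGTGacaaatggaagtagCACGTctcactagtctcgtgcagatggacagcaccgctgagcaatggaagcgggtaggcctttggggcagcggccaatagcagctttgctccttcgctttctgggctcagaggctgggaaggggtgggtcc
Ldha, chr7:46845554-46845803, plus strand: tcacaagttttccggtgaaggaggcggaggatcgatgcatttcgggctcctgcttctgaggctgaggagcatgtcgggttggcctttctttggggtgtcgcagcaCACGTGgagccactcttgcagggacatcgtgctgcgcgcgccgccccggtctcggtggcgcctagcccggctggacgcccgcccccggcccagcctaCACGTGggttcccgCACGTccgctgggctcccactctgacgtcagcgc
Pfkp, chr13:6648772-6649021, minus strand: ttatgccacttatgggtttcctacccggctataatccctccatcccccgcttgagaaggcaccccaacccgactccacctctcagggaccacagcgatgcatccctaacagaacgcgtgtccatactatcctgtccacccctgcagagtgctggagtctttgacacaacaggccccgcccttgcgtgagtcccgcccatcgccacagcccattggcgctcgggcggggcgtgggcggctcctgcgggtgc
In Hk2 the motif began 226 and 52 bases before the start, and in Pgk1 150 and 131 bases before it. Ldha had the densest window, with 5 matches counted over both strands, of which 4 belong to the pair of CACGTG runs, while the window before its second annotated start held none. The letters also stood in the windows of Hif1a (3 matches) and Aldoa (1 match, at a site common to the windows of 2 of its 3 annotated starts), and in none of the windows of Hk1, Gpi1, Pfkl, Pfkp and Eno1. Thus 5 of the 10 genes had the letters before at least 1 start, beside 18.5% of 27025 annotated genes and 16.6% of 32851 annotated starts with windows of the same length. Those backgrounds take in genes whatever their level here, whereas 9 of the 10 genes were among those tested. Enrichment of the letters was not tested. A match is a description of sequence and not a binding site. The related core GCGTG was not searched, so a gene without ACGTG may still carry it. GCGTG does stand in the Pfkp window shown above and in windows of Hk1, Pfkl and Eno1.

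The diets separated most of these genes, in opposite directions at different steps of the pathway, but none passed the test across all genes. Hk2 stood 3.32-fold higher by mean FPKM on the deficient diet. Hif1a, Pfkl, Pfkp and Aldoa were 1.34-fold to 1.497-fold higher, and Gpi1 and Pgk1 were at 0.714 and 0.525 of their normal diet means. Hk1 and Ldha differed by 5.55% and 12.6%. Changes were tested with limma as differences of log2(FPKM + 1), adjusted over 10423 genes by the Benjamini-Hochberg method. By that test 0 of the 9 tested genes had an adjusted p under 0.05, where 2.74% of all tested genes did. At an unadjusted p under 0.05 there were 6 of 9, against 22.8% of all tested genes. All 9 reached 1 FPKM in each of the 4 libraries, so the filter on low values did not depend on diet. Eno1 did not pass the filter. Among the 9, both deficient diet libraries lay above both normal diet libraries for 6 genes (30.7% of all tested genes) and below them for 2 genes (25.5% of all tested genes). The median log2 change was 0.42 over the 9 genes and 0.04 over all tested genes. The genes were not drawn at random but chosen by name with earlier results of these data known. These shares are therefore set side by side as a description only.

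**Figure D1:**
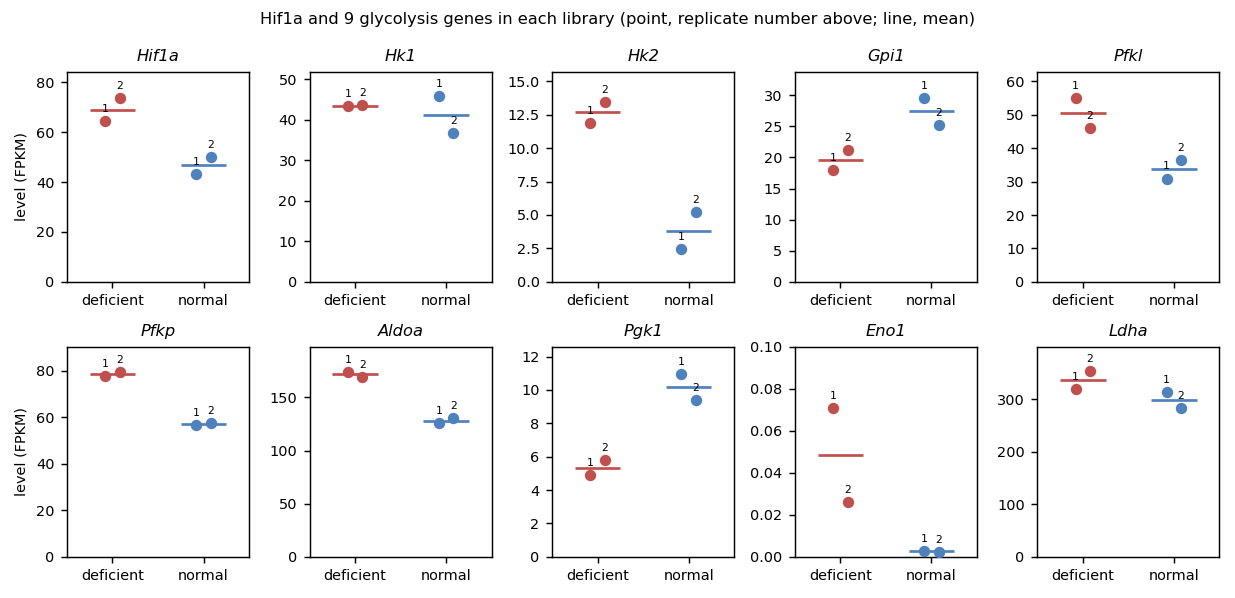
Level in FPKM (vertical axes, each from 0) of Hif1a and the 9 enzyme genes in each library, deficient diet left and normal diet right, with points for libraries and lines for means. Among tested genes only Hk1 overlaps between the diets; Gpi1 and Pgk1 are lower on the deficient diet, and Eno1 stays under 0.1 FPKM in all 4 libraries.

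Hif1a encodes the oxygen-regulated subunit of HIF-1, whose amount is controlled mainly by breakdown of the protein, so that a transcript level does not give its activity. Its level was 64.4 and 73.6 FPKM in the deficient diet libraries, against 43.4 and 50.0 FPKM in the normal diet libraries. Both deficient diet libraries were higher, and the libraries within a diet differed 1.14-fold and 1.15-fold. The log2 change was 0.55 ± 0.16 (SE), with a 95% interval from 0.14 to 0.97 and an adjusted p of 0.137. Under the 12 alternatives the change lay between 0.45 and 0.65 and the adjusted p between 0.121 and 0.429.

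Hexokinases trap glucose in the cell as glucose 6-phosphate. Hk2, the inducible form associated with activated lymphocytes, had 11.9 and 13.5 FPKM on the deficient diet, against 2.44 and 5.19 FPKM on the normal diet. The diets did not overlap, but the normal diet libraries differed 2.13-fold from each other, the widest gap within a diet among the 9 tested genes. The log2 change was 1.56 ± 0.34 (SE), with a 95% interval from 0.68 to 2.45 and an adjusted p of 0.0874. Normal diet replicate 2 decides on which side of the threshold Hk2 falls: without it the log2 change was 1.99 and the adjusted p 0.0447, and without normal diet replicate 1 they were 1.14 and 0.190. Macrophage markers summed to 1328 and 714 FPKM on the deficient diet and to 147 and 2098 FPKM on the normal diet, mostly from Lyz2. On the normal diet the lower Hk2 level and the lower sum were both in replicate 1. On the deficient diet the lower Hk2 level was in replicate 1 and the lower sum in replicate 2. The part of other cells in the difference was not tested.

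Hk1, the form present in most cells, did not separate the diets. It had 43.4 and 43.6 FPKM on the deficient diet and 45.8 and 36.6 FPKM on the normal diet, with a log2 change of 0.08 ± 0.17 (SE), a 95% interval from -0.36 to 0.53 and an adjusted p of 0.817. The normal diet libraries enclosed the deficient diet libraries. Hk1 was the more abundant of the pair in every library, and Hk2 made up 21.5% and 23.6% of their summed FPKM on the deficient diet, against 5.06% and 12.4% on the normal diet. That share is a ratio within each library and is not altered by the scaling between libraries. The summed level of the pair was 55.3 and 57.0 FPKM on the deficient diet and 48.2 and 41.8 FPKM on the normal diet. Hk3, a hexokinase of myeloid cells, stood at 2.25 and 1.77 FPKM on the deficient diet and at 1.11 and 4.21 FPKM on the normal diet, low and high in the same normal diet libraries as the macrophage markers.

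**Figure D2:**
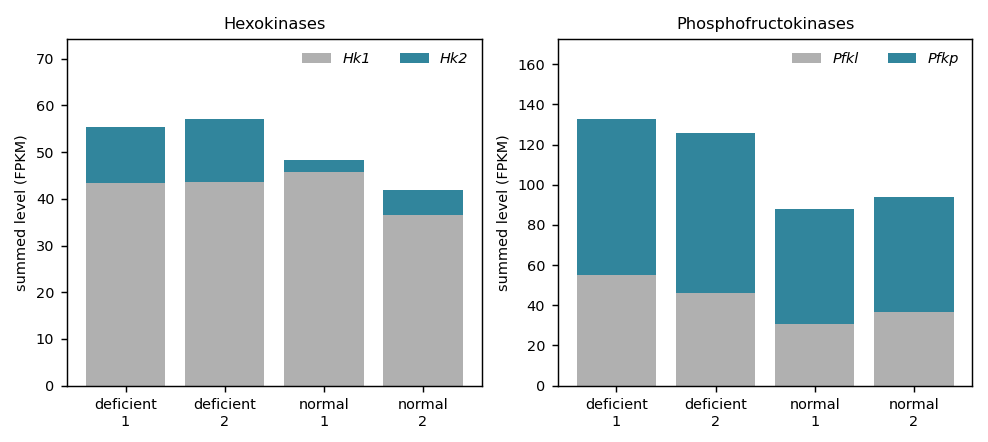
Stacked level in FPKM (vertical axis from 0) of Hk1 and Hk2 (left) and of Pfkl and Pfkp (right) in each library. Hk1 fills most of each hexokinase bar while the Hk2 part is larger on the deficient diet, and both phosphofructokinase parts are larger on the deficient diet.

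Gpi1 encodes glucose-6-phosphate isomerase, which makes fructose 6-phosphate. It had 17.9 and 21.2 FPKM on the deficient diet, against 29.5 and 25.3 FPKM on the normal diet. Both deficient diet libraries were lower. The log2 change was -0.47 ± 0.18 (SE), with a 95% interval from -0.94 to 0.01 and an adjusted p of 0.225.

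Phosphofructokinase makes the first step that is committed to glycolysis, and both of its abundant subunit genes were higher on the deficient diet by similar amounts. Pfkl, the liver-type subunit, had 54.9 and 46.1 FPKM on the deficient diet, against 30.9 and 36.6 FPKM on the normal diet. Pfkp, the platelet-type subunit, had 77.6 and 79.4 FPKM on the deficient diet, against 56.8 and 57.3 FPKM on the normal diet. Neither gene overlapped between the diets, and the libraries of Pfkp lay 1.02-fold apart on the deficient diet and 1.01-fold apart on the normal diet. The log2 changes were 0.57 ± 0.18 for Pfkl and 0.45 ± 0.13 for Pfkp (SE), with adjusted p of 0.154 and 0.137. The ratio of Pfkp to Pfkl was 1.41 and 1.72 on the deficient diet and 1.84 and 1.57 on the normal diet, so the diets overlapped in it. The muscle-type subunit gene Pfkm was low, at 1.98 and 2.08 FPKM on the deficient diet and 0.782 and 1.9996 FPKM on the normal diet. Pfkfb3, whose product makes the fructose 2,6-bisphosphate that activates phosphofructokinase, had 14.6 and 14.0 FPKM on the deficient diet, against 8.78 and 8.51 FPKM on the normal diet. The libraries of Pfkfb3 did not overlap, and its adjusted p was 0.123.

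Aldoa encodes the aldolase that splits fructose 1,6-bisphosphate. It was the second most abundant of these genes, at 173.9 and 169.4 FPKM on the deficient diet, against 125.4 and 130.4 FPKM on the normal diet. Both deficient diet libraries were higher and replicates lay close together. The log2 change was 0.42 ± 0.13 (SE), with a 95% interval from 0.09 to 0.75 and an adjusted p of 0.149.

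Pgk1, the phosphoglycerate kinase that yields the first ATP of the pathway, had 4.89 and 5.77 FPKM on the deficient diet, against 10.9 and 9.38 FPKM on the normal diet. Both deficient diet libraries were lower. The log2 change was -0.82 ± 0.22 (SE), with a 95% interval from -1.38 to -0.25 and an adjusted p of 0.1201. Of the other enzymes that act between aldolase and enolase, Tpi1, Gapdh and Pgam1 also had estimates below 0 and Bpgm had one above 0. Tpi1, triosephosphate isomerase, had 25.0 and 28.5 FPKM on the deficient diet, against 42.0 and 44.6 FPKM on the normal diet. Gapdh, which oxidizes glyceraldehyde 3-phosphate, had 65.7 and 86.0 FPKM on the deficient diet, against 148.1 and 126.8 FPKM on the normal diet. Pgam1, phosphoglycerate mutase, had 14.7 and 12.8 FPKM on the deficient diet, against 28.6 and 28.9 FPKM on the normal diet. Bpgm, bisphosphoglycerate mutase, had 17.5 and 24.7 FPKM on the deficient diet and 18.6 and 10.7 FPKM on the normal diet, with overlap, a log2 change of 0.53 and an adjusted p of 0.405. The libraries of Tpi1, Gapdh and Pgam1 did not overlap between diets, and their adjusted p were 0.0950 for Tpi1, 0.0905 for Gapdh and 0.0543 for Pgam1. Pgam1 was called lower with a filter of 5 FPKM (adjusted p = 0.0461) or with quantile normalization (0.0433), and its adjusted p ranged up to 0.273 over the alternatives. Within each library, the ratio of Aldoa to Gapdh was 2.65 and 1.97 on the deficient diet against 0.847 and 1.03 on the normal diet. Scaling between libraries does not alter such a ratio, but the level of Gapdh is uncertain, as given below.

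**Figure D3:**
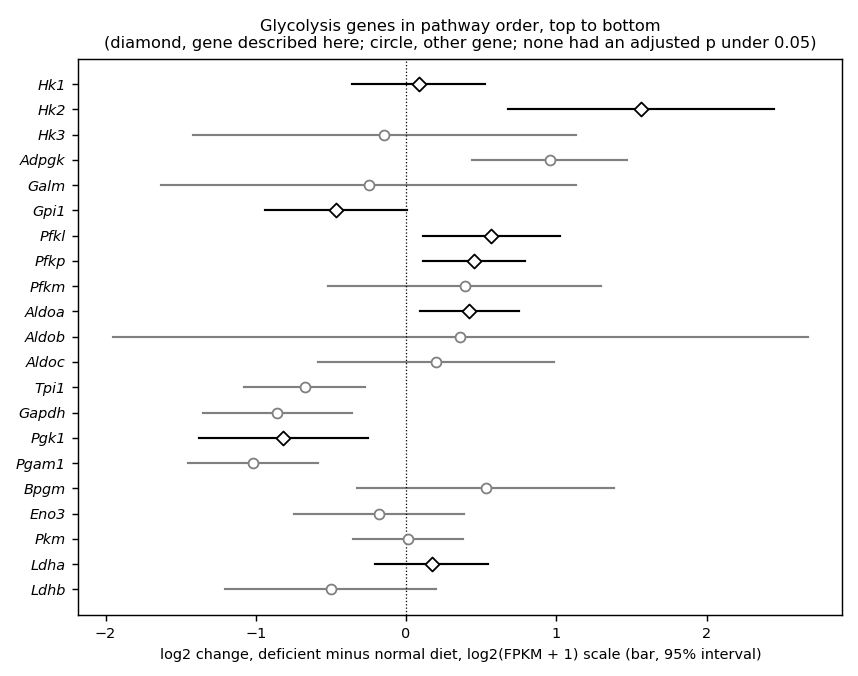
Log2 change (horizontal axis, deficient minus normal diet, log2(FPKM + 1) scale) with 95% intervals for tested glycolysis genes, ordered from glucose phosphorylation at the top to lactate at the bottom. Hk2, Pfkl, Pfkp, Aldoa and Bpgm lie right of 0 and Gpi1, Tpi1, Gapdh, Pgk1 and Pgam1 left of it, while Pkm and Ldha lie near 0; Eno1 was not tested and is not drawn.

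The level of Eno1 in this table is uncertain. Eno1 encodes the main enolase of lymphocytes, yet it was listed at 0.0708 and 0.0261 FPKM on the deficient diet and at 0.00294 and 0.00246 FPKM on the normal diet. Eno3, the muscle enolase gene, was listed higher, at 5.37 and 4.74 FPKM on the deficient diet and 6.06 and 5.64 FPKM on the normal diet. Of the 36-base words in Eno1 transcripts of the GENCODE vM21 annotation, 72.1% occur in no other gene and 27.1% are shared with the near copy Eno1b. Such shared words decide how reads can be assigned. The share in no other gene was 45.5% for Pgk1, with 54.5% of its words found in Pgk1-rs7, and 80.3% for Gpi1. It was 83.5% for Ldha, 89.3% for Aldoa, 93.5% for Hif1a, 94.8% for Pfkp, 98.6% for Hk1, 99.7% for Pfkl and just under 100% for Hk2. The genes lower on the deficient diet thus had the smaller shares among the tested ones, as had Pgam1 (63.1%) and Gapdh (72.7%), whereas Tpi1 had 91.9%. Pkm had 68.2% and Ldhb 70.4%. The part of shared sequence in these differences was not tested, and the levels of Pgk1, Eno1, Gapdh, Pgam1, Pkm and Ldhb are uncertain.

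At the end of the pathway the diets were close. Ldha, the lactate dehydrogenase subunit that dominates in activated lymphocytes, was the most abundant gene described here, at 318.8 and 353.2 FPKM on the deficient diet, against 314.3 and 282.6 FPKM on the normal diet. Deficient diet replicate 1 lay just above normal diet replicate 1. The log2 change was 0.17 ± 0.14 (SE), with a 95% interval from -0.21 to 0.55 and an adjusted p of 0.543. Ldhb, the other main subunit, was low, at 1.74 and 1.34 FPKM on the deficient diet and 2.93 and 2.27 FPKM on the normal diet. Pkm, pyruvate kinase, had 207.7 and 230.6 FPKM on the deficient diet and 207.1 and 227.0 FPKM on the normal diet, with a log2 change of 0.01 and an adjusted p of 0.969.

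By mean FPKM over the 4 libraries the order of levels was Ldha (317.2), Aldoa (149.8), Pfkp (67.8), Hif1a (57.8), Hk1 (42.4), Pfkl (42.1), Gpi1 (23.5), Hk2 (8.24), Pgk1 (7.74) and Eno1 (0.0256). Along that order the ranges over the 4 libraries overlapped between neighbours from Pfkp through Hif1a and Hk1 to Pfkl, and between Hk2 and Pgk1. Neighbours elsewhere in the order did not overlap. The order of Hk2 and Pgk1 turned with diet: Hk2 was above Pgk1 in both deficient diet libraries and below it in both normal diet libraries. Because the levels of Pgk1 and Eno1 are uncertain, as given above, their places in the order are uncertain too. Together the 10 genes made up 0.205% and 0.210% of the summed FPKM of the deficient diet libraries, against 0.169% and 0.171% on the normal diet. Ldha alone gave 41.5% and 43.8% of that amount on the deficient diet and 47.7% and 44.6% on the normal diet.

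In the rest of the pathway none of the 13 tested other glycolysis enzymes passed (4 at an unadjusted p under 0.05 in limma), with libraries above in 1 and below in 5. Of all tested genes, as given above, 30.7% lay above and 25.5% below. The median log2 change of the 13 was -0.14, from 6 estimates above 0 and 7 below, and it ranged from -0.37 to -0.027 with 1 library left out. Glucose and lactate transport genes likewise had none of 9 past the threshold (2 at an unadjusted p under 0.05) and a median of -0.14. Slc2a1, the main glucose transporter of activated T cells, had 68.8 and 67.4 FPKM on the deficient diet, against 76.3 and 89.6 FPKM on the normal diet. Slc2a3, a second glucose transporter, had 41.1 and 44.0 FPKM on the deficient diet, against 64.5 and 55.3 FPKM on the normal diet. Both were lower in the deficient diet libraries without overlap, with adjusted p of 0.348 and 0.163, on the opposite side from Hk2. Slc16a3, which exports lactate, had 77.8 and 60.9 FPKM on the deficient diet and 12.2 and 69.2 FPKM on the normal diet. Normal diet replicate 1, the library lowest in macrophage markers, stood apart, and normal diet replicates decide the value of Slc16a3: its log2 change was 1.197 over all libraries, 2.40 without normal diet replicate 2 (adjusted p = 0.0225) and -0.0072 without normal diet replicate 1 (0.993). Slc16a1, another lactate transporter, ranged from 13.6 to 16.4 FPKM over the 4 libraries. Of 14 tested genes of flux control and pyruvate entry into mitochondria none passed (3 at an unadjusted p under 0.05), 8 lay above without overlap and none below, beside 30.7% above, 25.5% below and 22.8% at that unadjusted p among all tested genes. Their median log2 change was 0.26, or 0.15 without deficient diet replicate 2. Pdk1, a kinase that holds pyruvate dehydrogenase off, had 13.2 and 28.1 FPKM on the deficient diet and 13.1 and 11.2 FPKM on the normal diet, and only deficient diet replicate 2 stood apart.

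Around Hif1a, 1 of 11 tested genes of HIF partners and oxygen sensing rose and none fell, beside 2.74% called among all tested genes, with a median log2 change of 0.24. The gene was Epas1, which encodes HIF-2alpha, the close relative of HIF-1alpha. Epas1 had 27.3 and 35.2 FPKM on the deficient diet, against 5.08 and 7.91 FPKM on the normal diet, a 4.81-fold difference of means with a log2 change of 2.12 ± 0.27 (SE) and an adjusted p of 0.0399. Hif1a remained above Epas1 in all 4 libraries. Liver endothelium also expresses Epas1, and its 7 markers summed to 170 and 64.1 FPKM on the deficient diet and to 37.1 and 348 FPKM on the normal diet. On the normal diet the lower Epas1 level and the lower marker sum were both in replicate 1. On the deficient diet the lower Epas1 level was in replicate 1 and the lower marker sum in replicate 2. The part of endothelium in the difference was not tested. The call for Epas1 did not hold without deficient diet replicate 1 (adjusted p = 0.0995), deficient diet replicate 2 (0.252) or normal diet replicate 1 (0.0888), fits that rest on fewer libraries. Nor did it hold without the filter on low values (0.147) or without the variance trend (0.0535). Arnt, the partner that both HIF proteins need, had 11.3 and 14.2 FPKM on the deficient diet and 12.6 and 11.99 FPKM on the normal diet. Egln1, an oxygen-sensing prolyl hydroxylase, and Vhl, which marks HIF for breakdown, had log2 changes of -0.11 and 0.28 and adjusted p of 0.838 and 0.462. Egln3, a hydroxylase induced by HIF, stayed under 1 FPKM and was not tested.

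Among 18 tested HIF target genes outside glycolysis 1 rose and none fell, beside 2.74% called among all tested genes. Their median log2 change was 0.25, and leaving out deficient diet replicate 1 gave 0.04, deficient diet replicate 2 gave 0.40, and normal diet replicate 2 gave 0.56. Ero1l, an oxidase of the endoplasmic reticulum, had 92.9 and 87.9 FPKM on the deficient diet, against 34.3 and 28.2 FPKM on the normal diet. That was a 2.89-fold difference of means with a log2 change of 1.51 ± 0.16 (SE) and an adjusted p of 0.0328. It was not called without deficient diet replicate 1 (adjusted p = 0.0995), deficient diet replicate 2 (0.233) or normal diet replicate 1 (0.0804), nor without the filter (0.147) or the trend (0.0535). Vegfa, a growth factor for vessels, had 3.52 and 1.203 FPKM on the deficient diet, against 0.711 and 0.803 FPKM on the normal diet, and Bnip3, a mitophagy receptor, had 16.4 and 11.0 FPKM on the deficient diet and 6.16 and 11.7 FPKM on the normal diet. Their adjusted p were 0.317 for Vegfa and 0.397 for Bnip3. Of the 18 estimates 13 were above 0 and 5 below. Libraries lay above without overlap for 6 genes and below for 4, beside 30.7% and 25.5% of all tested genes. P4ha1 and Mxi1, named after their values were seen, had log2 changes of -0.99 and -1.05 without passing.

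**Figure D4:**
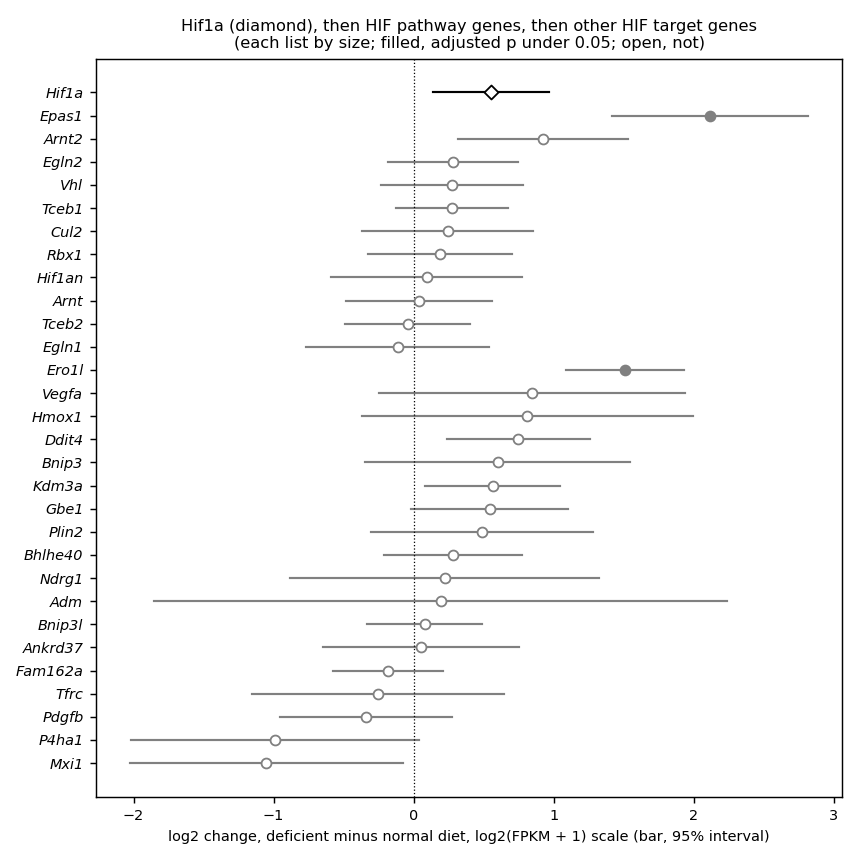
Log2 change (horizontal axis, deficient minus normal diet, log2(FPKM + 1) scale) with 95% intervals for Hif1a, then tested HIF pathway genes, then tested HIF target genes outside glycolysis. Filled points passed an adjusted p of 0.05: Epas1 at 2.12 and Ero1l at 1.51, both further from 0 than Hif1a at 0.55.

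The genes with the profile nearest to Hif1a over the 4 libraries, by distance between centred log2 values among 1969 tested genes of similar level, were Tbl1x, Gmfb and Zbtb16, at distances of 0.0443, 0.0519 and 0.0642. Zbtb16, the transcription factor PLZF of innate-like T cells, had 36.5 and 43.6 FPKM on the deficient diet, against 26.1 and 29.7 FPKM on the normal diet. With 4 libraries such nearness is a description only.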

How the data were processed

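Diet groups came from the labels. The deposited values were read as FPKM, although neither table nor labels name a unit: they are fractional, often far under 1, with library sums of 370112 to 389403. Bowtie 0.12.2 and build mm8 are listed, per the submitters' processing notes, with the quantifier and annotation not given in the sources used here. FPKM retains no read counts, so depth and its precision are unknown and count tests were not run.

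Genes reaching 1 FPKM in 2 or more libraries (10423) were transformed to log2(FPKM + 1), which understates changes of low genes. The model in limma 3.58.1 (R 4.3.3) held diet alone, with a variance trend, 2 residual and 2.84 prior degrees of freedom, and a Benjamini-Hochberg threshold of 0.05. It was tested on simulated data. Folds are ratios of mean FPKM. A 0 is given as listed, not as absence.

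Members and lists were chosen with earlier results of these data known. Genes named were the members, called list genes, a fixed panel and the 3 genes nearest to Hif1a. Eno3, Bpgm, Adpgk, Txnip, Akt1, P4ha1, Mxi1, Lyz2, Marco and the markers listed at 0 lie outside that rule and were named after their values were seen. Words of 36 bases came from GENCODE vM21, which the authors are not known to have used. Alternatives were pseudocounts of 0.1 and 5, no filter, a filter of 5 FPKM, quantile normalization, median centring, each library left out, a replicate block, no trend, and an adjusted p of 0.10.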

Additional observations from a re-analysis of the deposited data

How the results depend on the processing

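The direction of each of the 9 tested genes was the same under all 12 alternatives except for Hk1, whose log2 change was -0.073 without normal diet replicate 2 and ranged from -0.073 to 0.24 with 1 library left out. The count of called genes among the 9 was 0 in all but 2 cases: it was 1, Hk2, at an adjusted p of 0.10, and ranged from 0 to 1 with 1 library left out. Over all genes 286 were called. The count was 467 with quantile normalization, 141 without the trend, 912 at an adjusted p of 0.10, and 0 without a filter (2712 genes at an unadjusted p under 0.05), and with 1 library left out it ranged from 0 to 352, being 0 unless normal diet replicate 2 was the one left out. A replicate block also gave 0 (1844 genes at an unadjusted p under 0.05). Deviations of same-numbered libraries from their diet means correlated at -0.284 over genes. With 2 libraries per diet, whose deviations mirror each other, this value cannot show whether replicate numbers pair the libraries. With crossed numbers, an alternative chosen after seeing the data, 52 genes were called and none of the 9.

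The calls of Epas1 and Ero1l became 0 without a filter, without the trend and with the replicate block in either pairing, and each ranged from 0 to 1 with 1 library left out. In the lists of other glycolysis enzymes, transport, flux control, regulators and pentose phosphate genes called genes numbered 0, but 1 for other glycolysis enzymes with a filter of 5 FPKM or quantile normalization and 4 at an adjusted p of 0.10. They numbered 1 for T cell regulators with quantile normalization, and 1 each for transport, regulators and pentose phosphate genes at an adjusted p of 0.10. For transport the range was 0 to 1 with 1 library left out, the log2 change of Slc16a3 ranging from -0.0072 to 2.40. The cause of these shifts was not tested. Depth is unknown, so low genes such as Hk2 and Pgk1 carry an unknown counting error.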

Other observations

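Regulators that act upstream of glycolysis in T cells and the side branches of the pathway had no gene past the limma threshold (2 of each list at an unadjusted p under 0.05). Among all tested genes 2.74% passed that threshold and 22.8% had an unadjusted limma p under 0.05. Of 15 regulators, 3 had estimates above 0 and 12 below, with a median log2 change of -0.19, beside 0.04 over all tested genes. Myc, a driver of glycolytic genes on activation, had 108.8 and 125.4 FPKM on the deficient diet and 154.7 and 123.9 FPKM on the normal diet. Mtor, a growth kinase, had 2.81 and 3.16 FPKM on the deficient diet, against 1.84 and 1.62 FPKM on the normal diet, with an adjusted p of 0.281. Akt1, named after its values were seen, had 27.7 and 15.1 FPKM on the deficient diet, against 78.8 and 68.3 FPKM on the normal diet, and a limma adjusted p of 0.0573.

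Of 12 tested pentose phosphate and gluconeogenesis genes, 3 lay above and 3 below without overlap, beside 30.7% above and 25.5% below among all tested genes. Their median log2 change was -0.16, or 0.06 over the 8 genes left by a filter of 5 FPKM. Named after their values were seen, Adpgk, an ADP-dependent glucokinase, had 56.2 and 48.1 FPKM on the deficient diet, against 22.9 and 30.2 FPKM on the normal diet. Txnip, which restrains glucose uptake, had 160.2 and 186.2 FPKM on the deficient diet, against 257.3 and 292.9 FPKM on the normal diet. Neither passed (limma adjusted p of 0.0810 for Adpgk and 0.0991 for Txnip).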
